A study of Mus musculus with 16 samples.

Results

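The subject of this report is 405 pixels of a chromosome contact map that passed a loop score threshold in both libraries of mouse embryonic stem (ES) cells grown in 2i and in no library of ES cells grown in serum or of neural progenitor cells (NPCs). A pixel is a pair of bins of 4 kb within 1 of the loci surveyed by 5C. The pixels were chosen by their values: both 2i interaction scores were 26 or more and all 4 serum and NPC scores were below 26 in the authors' deposited table of classified pixels. They are 405 of the 5762 pixels of that table, which holds 3942 pixels that the authors sorted into looping classes and 1820 background pixels.

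A chromatin loop brings distant stretches of a chromosome together, and its feet are called anchors. CTCF, a zinc-finger protein that binds DNA, sits at many anchors, where it stops the cohesin ring as it extrudes DNA, while other loops join enhancers with promoters. In 2i medium, inhibitors of the kinases MEK and GSK3 hold ES cells near the naive state of the early embryo, and in serum with LIF the same cells are more heterogeneous. 5C counts ligation products between restriction fragments that are picked by forward and reverse primers, so a contact is seen only where a forward primer meets a reverse primer.

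ES cells were of the V6.5 line, a male line from 129SvJae and C57BL/6 mice. They were first kept on feeder fibroblasts and then moved to gelatin, with either LIF, CHIR99021 and PD0325901 without serum (2i) or with serum and LIF. NPCs came from whole brains of P1 pups carrying a Sox2-eGFP allele and were grown as neurospheres, plated at 60000 cells per square cm. NPCs for the knockdown were plated at 20000 cells per square cm and received siRNA against YY1, a DNA-binding zinc-finger protein, or control siRNA at 20 nM for 78 h. Cells of the untreated groups were fixed in 1% formaldehyde, per the labels, and each of the 5 groups had 2 libraries made from HindIII digests, which in the siRNA groups followed an in situ protocol. The titles of the control libraries say control siRNA but their growth text names siRNA against YY1, and the titles were followed. ES cells and NPCs differ in origin as well as in type, which cannot be told apart. The tables used here hold contacts and CTCF peaks, so the labelled cell types and the loss of YY1 were not checked against transcript levels.

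Total counts were 11784821 to 26533530 in the untreated libraries, with the serum libraries the deepest, and 4419309 to 12993781 in the siRNA libraries. Whether the libraries of 1 group are separate cultures is not in the labels, so the spread behind every p-value may be technical. The counts are PCR reads without molecular identifiers. Cells were measured in bulk, so a contact made in fewer cells cannot be told apart from a weaker contact in each cell.

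The interaction score is the authors' value. Over the deposited tables it equals minus 10 times the log2 of the deposited p of the observed contact over its local expectation, so a score of 26 stands for a p of 0.165. The median score of the 405 pixels was 57.0 in 2i replicate 1 and 53.9 in 2i replicate 2, against 8.19 and 5.64 in the serum libraries and 6.13 and 5.44 in the NPC libraries. The 2i scores ran from 34.4 to 106 in replicate 1 and from 33.1 to 90.7 in replicate 2. No 2i score overlapped any serum or NPC score, which the choice of the pixels fixes. In 211 of the 405 pixels (52.1%) all 4 serum and NPC scores were below 13. The observed contact exceeded its local expectation at 403 pixels in 2i replicate 1 and at all 405 in replicate 2, and at 54 to 95 pixels in each of the other 4 libraries. As the score is made from that same comparison, the choice of the pixels largely sets this split.

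**Figure D1:**
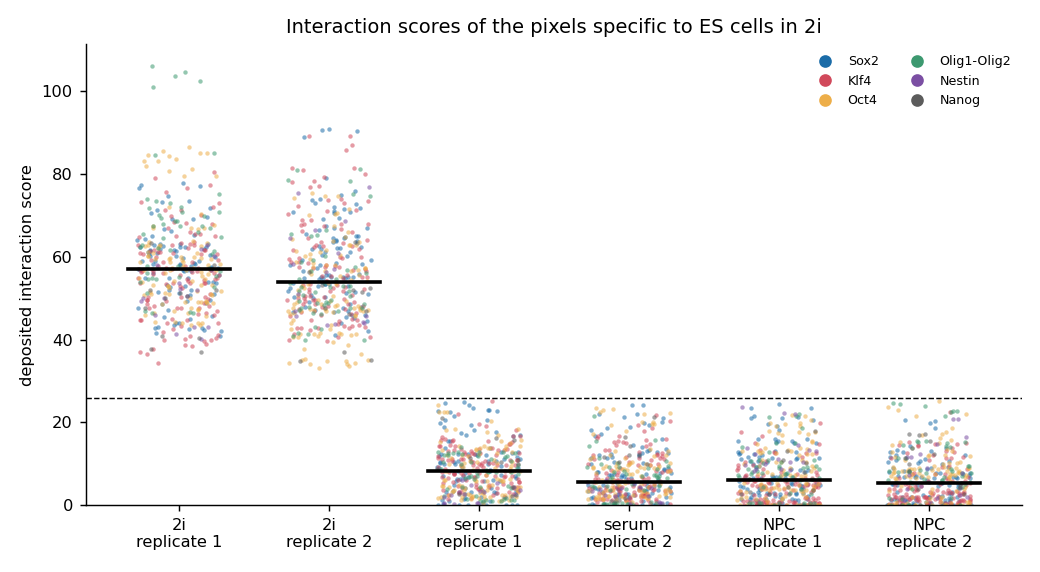
Deposited interaction score (vertical axis, no unit) of each of the 405 pixels in the 6 untreated libraries, coloured by locus. Black bars are medians, and the dashed line is the threshold of 26 that chose the pixels. Scores in the 2i libraries have medians of 57.0 and 53.9, and those in the other 4 libraries have medians of 5.44 to 8.19.

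The lower 2i score exceeded the highest serum or NPC score by 36.1 in the median pixel and by at least 30.2 in every pixel. The pixels just inside on the 2i side belonged to an Oct4 cluster, at chr17:35618392-35622391 with chr17:36314392-36318391, where the 2i scores were 79.5 and 33.1 and no other score exceeded 2.31. Just inside on the other side was an Oct4 pixel joining chr17:36318392-36322391 with chr17:36378392-36382391, which scored 72.0 and 67.3 in 2i, 10.5 and 9.11 in serum, and 21.7 and 25.2 in NPCs. Just outside was an Oct4 pixel joining chr17:35630392-35634391 with chr17:35734392-35738391, with 59.2 and 62.9 in 2i, 20.9 and 26.3 in serum, and 6.61 and 5.93 in NPCs. All 405 pixels were in the authors' class for 2i only, which holds 451. Of the 46 others in that class, 27 had a serum score of 26 or more and 22 an NPC score of 26 or more.

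The same threshold applied to the authors' full table gave many more pixels. Of 191831 pixels scored in all 6 libraries, 5829 (3.04%) met it, and their median lower 2i score was 32.0, against 51.3 in the 405. With the separation of at least 30.2 that every one of the 405 had, the full table held 465 pixels, of which 405 (87.1%) were the pixels described here. These 465 formed 99 clusters, of which 46 held none of the 405, and 32 of those were a lone pixel. The same rule applied to the other groups in the classified table gave 304 pixels specific to serum and 610 specific to NPCs.

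Replicates of 2i differed by a median of 7.21 score units per pixel. In 46 pixels they differed by more than 20, and replicate 1 was the higher in 32 of these. The Oct4 locus held 19 of the 46 and the Olig1-Olig2 locus 16. All 15 pixels of an Oct4 cluster joining chr17:35618392-35634391 with chr17:36310392-36334391 were among them, with a mean score of 81.7 in replicate 1 and 35.5 in replicate 2. The cluster was above the threshold in both libraries, at levels far apart.

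The loci are named for genes of pluripotent cells and of the neural lineage. Sox2, Oct4 (gene symbol Pou5f1), Klf4 and Nanog encode transcription factors of the pluripotency network, of which Sox2 is also active in neural progenitors. Nestin, an intermediate filament protein, marks neural progenitors, and Olig1 and Olig2 are transcription factors of the oligodendrocyte lineage. Klf4 held 121 of the 405 pixels, Oct4 105, Sox2 98, Olig1-Olig2 52, Nestin 17 and Nanog 12, and the gene desert control held 0 of its 16 classified pixels. As a share of all classified pixels of the locus this was 28.1% at Klf4, 11.3% at Sox2, 5.96% at Olig1-Olig2, 4.41% at Oct4, 3.26% at Nanog and 2.06% at Nestin. In the full table, the share of scored pixels meeting the rule ranged only from 2.62% at Oct4 to 4.05% at Klf4 over the same 6 loci, and was 0.11% in the gene desert. At Klf4 the same rule gave 23 serum-specific and 26 NPC-specific pixels, whereas at Sox2 it gave 5 and 197 beside the 98 for 2i.

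Pixels that touched by a side or a corner were taken as 1 cluster, and the 405 formed 53 clusters, the number of cluster names the authors gave them. The largest had 31 pixels, the median 4, and 1 cluster was a lone pixel. The 17 clusters with 9 or more pixels held 265 pixels (65.4%). Pixels of a cluster share fragments and counts and are not independent of each other. Positions are given in mm9.

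**Figure D2:**
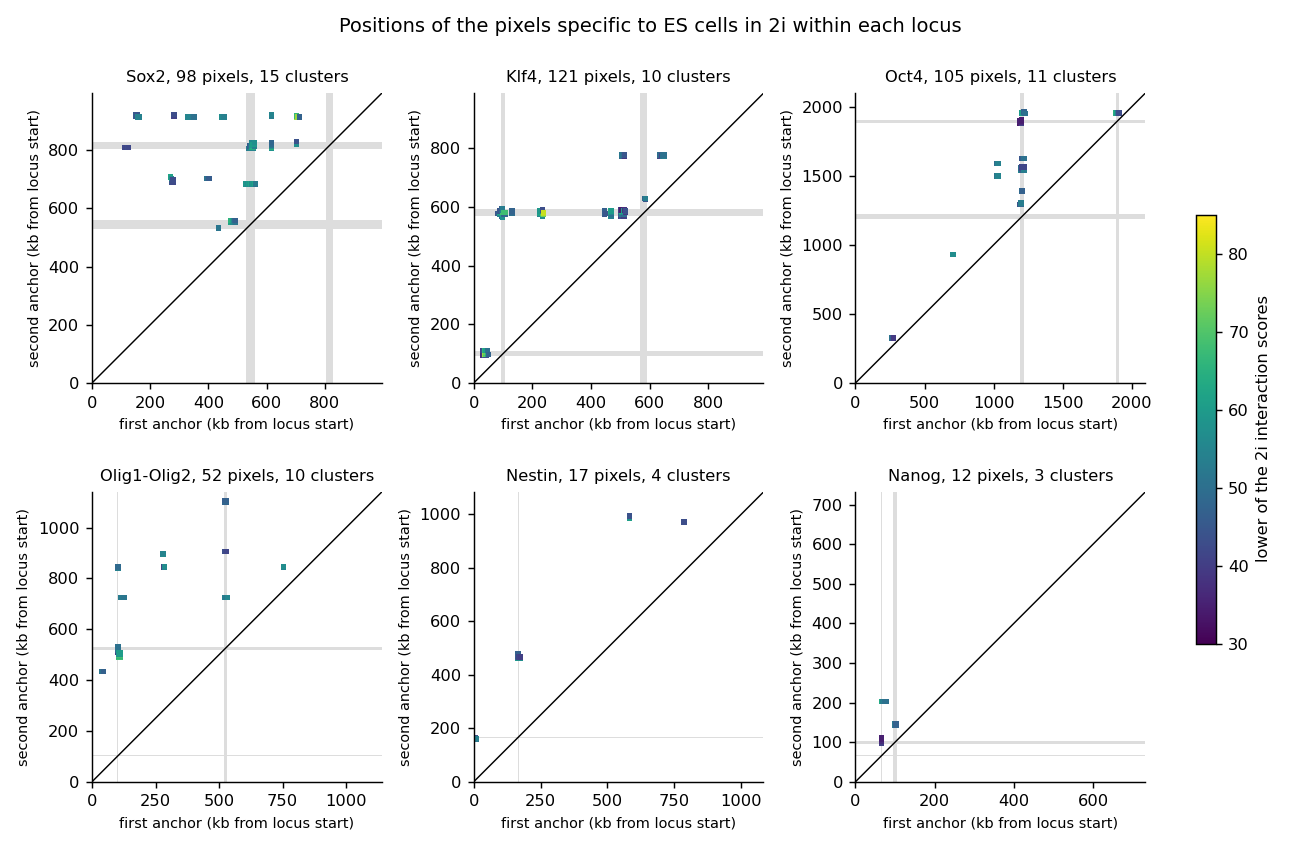
Position of each pixel within its locus, as the distance in kb of its first anchor (horizontal) and second anchor (vertical) from the start of the locus, coloured by the lower of its 2i scores. The diagonal is zero distance, and grey bands mark the stretches of anchor used by more than 1 cluster that hold the most pixels, up to 2 per locus. At Klf4, 84 of 121 pixels lie on a shared band.

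At Klf4, most of the pixels met at a common anchor. The 24 kb stretch chr4:55467979-55491978 was an anchor of 7 of the 10 Klf4 clusters and of 84 of the 121 pixels (69.4%). Its partners lay upstream at 56 to 500 kb, except for a cluster of 3 pixels whose partner lay downstream at 40 to 48 kb. The largest cluster, with 25 pixels, joined this stretch with chr4:55399979-55419978. Its leading pixel, chr4:55403979-55407978 with chr4:55483979-55487978 at 80 kb, scored 64.7 and 64.0 in 2i, 10.7 and 5.28 in serum, and 4.99 and 1.60 in NPCs. A cluster of 17 pixels joined the stretch with chr4:55123979-55139978, and the pixels with the highest lower 2i scores of all 405 were in it. The first of these, at 344 kb, scored 80.4 and 81.0 in 2i, 16.6 and 19.5 in serum, and 0.543 and 2.88 in NPCs. The next, at 340 kb, scored 78.9 and 81.3 in 2i. A further 20 pixels joined chr4:54927979-54951978 with chr4:54991979-55011978 and did not reach the common anchor.

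The Oct4 locus showed the same arrangement. The 32 kb stretch chr17:35618392-35650391 was an anchor of 6 of the 11 Oct4 clusters and of 74 of the 105 pixels (70.5%). All its partners lay downstream. The largest cluster of all loci, with 31 pixels, joined it with chr17:35970392-35998391, and the leading pixel, at 348 kb, scored 62.7 and 57.9 in 2i, 9.59 and 19.7 in serum, and 4.18 and 11.6 in NPCs. Stretches overlapping its farthest partners, chr17:36314392-36338391 and chr17:36378392-36386391, also contacted each other in a cluster of 11 pixels, at 44 to 68 kb.

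At Sox2 the pixels were spread over 15 clusters. The 32 kb stretch chr3:34636880-34668879 took part in 4 clusters and 47 of 98 pixels (48.0%). The stretch chr3:34912880-34936879 took part in 4 clusters and 32 pixels, and chr3:35020880-35032879 in 6 clusters and 24 pixels. The first of these stretches joined the next in the largest Sox2 cluster, of 20 pixels, whose leading pixel, at 256 kb, scored 73.1 and 64.4 in 2i, 8.34 and 1.94 in serum, and 11.6 and 8.17 in NPCs. The pixel with the third highest lower 2i score of all joined chr3:34808880-34812879 with chr3:35020880-35024879 at 212 kb. It scored 77.7 and 90.7 in 2i, 0.176 and 0.0424 in serum, and 15.2 and 0.705 in NPCs.

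The neural loci and Nanog held smaller groups. At Olig1-Olig2 the largest cluster, of 16 pixels, joined chr16:90714613-90726612 with chr16:91102613-91146612, and its leading pixel, at 388 kb, scored 68.6 and 81.1 in 2i, 8.93 and 8.09 in serum, and 0.594 and 9.60 in NPCs. At Nestin the largest cluster had 9 pixels, and its leading pixel, chr3:87449088-87453087 with chr3:87745088-87749087, scored 60.1 and 68.5 in 2i, 3.77 and 0.523 in serum, and 23.8 and 9.01 in NPCs. The 3 Nanog clusters had 4 pixels each and spanned 32 to 136 kb. The leading Nanog pixel, chr6:122253360-122257359 with chr6:122389360-122393359, scored 63.3 and 63.6 in 2i, 8.72 and 10.4 in serum, and 17.9 and 17.1 in NPCs.

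Genes at the anchors were not placed, because no mm9 annotation was used here. In the gene order of the RefSeq annotation of GRCm38.p6, which gives neighbours but no mm9 position, Klf4 lies between Rad23b and Actl7b, Sox2 between Dnajc19 and Atp11b, and Pou5f1 between H2-Q10 and Tcf19 among protein-coding genes. Sequences of the anchors are likewise not printed.

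The pixels spanned 32 to 772 kb, with a median of 300 kb. The median was 148 kb over all classified pixels, 398 kb for the serum-specific and 240 kb for the NPC-specific pixels chosen by the same rule, and 88 kb for the authors' constitutive class. Of the 405 pixels, 60.0% spanned more than 200 kb, against 39.8% of all classified pixels. The loci differed widely: the median was 44 kb at Nanog, 128 kb at Klf4, 260 kb at Sox2, 296 kb at Nestin, 348 kb at Oct4 and 422 kb at Olig1-Olig2.

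Not every pixel had counts of its own. A designed forward and reverse primer pair with fragments in both 4 kb anchors existed for 265 of the 405 pixels. The other 140 (34.6%) had none, against 25.4% of all classified pixels, because an anchor held no fragment of the primer list (83 pixels) or its fragments had primers of the same direction as those of the partner (57 pixels). In 9 of the 53 clusters no pixel had such a pair. The Sox2 pixel with scores of 77.7 and 90.7 in 2i was in 1 of these clusters, and 13 of the 16 pixels of the largest Olig1-Olig2 cluster had no pair either. The scores of such pixels stand on the authors' binned values, with no designed ligation product between the 2 bins themselves.

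Raw counts of the same libraries were summed over pairs of 16 kb windows to see how many reads stand behind the scores. These counts made the scores that chose the pixels, so they are a description. Calls made on them are no test of the pixels. The pixels fell into 118 window pairs, of which 108 held a primer pair and 107 passed the filter on low counts. A median window pair held 3 primer pairs, and in 20 of the 108 a lone primer pair held over 80% of the counts (18.5%, against 15.5% of all pairs tested). The 10 window pairs without a primer pair held 29 pixels, 21 of them at Olig1-Olig2.

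After removal of each library's trend with distance, 99 of the 107 window pairs were lower in serum than in 2i and 103 were lower in NPCs. The median log2 fold change was -1.0 for serum and -1.18 for NPCs, against -0.01 and 0.03 over all 15601 pairs tested. At an edgeR adjusted p below 0.05, 62 of the 107 were lower in serum, where 11.6% of all pairs were, and 64 were lower in NPCs, where 8.88% of all pairs were. The serum count was 35 without 2i replicate 1, 36 without serum replicate 1 and 35 without serum replicate 2. Scaled to library size alone, with the trend left in, both 2i counts exceeded all 4 others in 82 of the 107. This held for 21.2% of all pairs. These shares follow from the choice of the pixels.

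The leading Klf4 window pair, chr4:55395979-55411978 with chr4:55475979-55491978, had a CPM (counts scaled to a common library size) of 248 and 228 in 2i, 102 and 89.7 in serum, and 52.5 and 49.3 in NPCs. Both 2i libraries were above all others, and the log2 fold change was -1.64 with SE 0.21 for serum and -1.67 with SE 0.21 for NPCs. The leading Oct4 pair, chr17:35630392-35646391 with chr17:35966392-35982391, had 247 and 160 counts in 2i, 89 and 142 in the deeper serum libraries, and 34 and 26 in NPCs. The leading Sox2 pair, chr3:34652880-34668879 with chr3:34908880-34924879, had a CPM of 29.1 and 28.2 in 2i, 20.3 and 18.5 in serum, and 13.6 and 15.4 in NPCs. Both 2i libraries were again above all others. With the distance trend removed the differences from 2i were -1.13 (SE 0.24) for serum and -0.90 (SE 0.24) for NPCs on the log2 scale, so the order of serum and NPCs turned.

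The loci differed, as was noticed after the values were seen. At Nanog, 3 of the 4 window pairs were higher in serum than in 2i after normalisation, against the order of their scores. At an edgeR adjusted p below 0.05, 2 of the 4 were called higher in serum, where 9.54% of all pairs were. The pair chr6:122285360-122301359 with chr6:122333360-122349359 had a CPM of 139 and 177 in 2i, 268 and 292 in serum, and 60.0 and 66.5 in NPCs, a log2 fold change of 0.84 with SE 0.16 for serum. The median over the 4 Nanog pairs was 0.61 for serum and -0.77 for NPCs. With 8 kb windows the serum median over 5 Nanog pairs turned to -0.22, with 4 of the 5 below 0, so the direction at Nanog depended on window size. At Olig1-Olig2, the median over 13 pairs was -0.60 for serum and -0.41 for NPCs, and 3 and 2 of the 13 pairs were called lower. It was -1.02 and -0.90 with windows shifted by 8 kb, and -0.31 and -0.03 without 2i replicate 1. At Nestin the median over 7 pairs was -0.61 for serum and -0.78 for NPCs, with 2 of the 7 called lower in each. With TMM scaling alone the serum median at Nestin was -1.05, with 5 of the 7 called lower. It was -1.01 over 4 pairs with 8 kb windows. At Sox2, Klf4 and Oct4 the medians lay between -1.48 and -0.93 for serum and between -1.52 and -1.30 for NPCs. Of these, Sox2 moved most with the setting, for serum from -1.16 to -0.67 with TMM scaling alone (17 to 8 pairs called lower) and to -0.71 with shifted windows, and for NPCs from -1.30 to -0.66 with shifted windows.

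**Figure D3:**
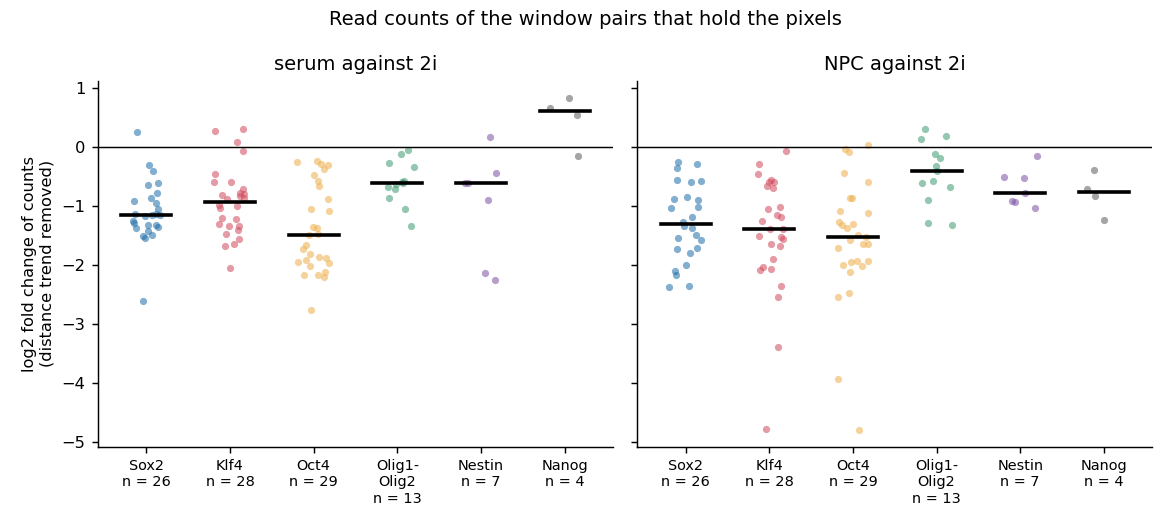
Log2 fold change of counts, with the trend over distance removed, for each of the 107 window pairs that hold the pixels, by locus, for serum against 2i (left) and NPC against 2i (right). Points are window pairs and black bars are medians over a locus. Of the 4 Nanog pairs, 3 lie above 0 for serum, which turned with 8 kb windows, and all 4 lie below 0 for NPCs.

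CTCF ChIP-seq had 1 library for each untreated condition, so its peak counts carry no replicate error. The authors' peak lists hold 56138 peaks for 2i, 50185 for serum and 28860 for NPCs, and 400, 364 and 196 peaks in the 7 loci. With the 2i list, 45 of the 405 pixels (11.1%) had a peak in both 4 kb anchors, 129 in a single anchor, and 231 (57.0%) in neither. Over all classified pixels 8.38% had a peak in both and 54.8% in neither. The share with a peak in both was 11.1% in the authors' constitutive class and 4.07% in their background class. It was 6.58% for the serum-specific and 7.38% for the NPC-specific pixels chosen by the same rule. With anchors of 16 kb the order turned, with 35.6% of the 405 and 42.8% of all classified pixels having a peak in both. The serum list gave nearly the same counts for the 405 pixels, with 47 in both anchors and 228 in neither, although no serum score reached 26. With the shorter NPC list, 5 pixels had a peak in both anchors and 342 (84.4%) in neither, against 73.6% in neither over all classified pixels. For that list, 81.9% of the serum-specific and 68.0% of the NPC-specific pixels had a peak in neither anchor.

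Few of the peaks were particular to 2i. Peaks found only in the 2i list lay in an anchor of 9 pixels (2.22%), never in both, against 6.35% of all classified pixels with such a peak in a single anchor. Peaks present in both ES lists and absent from the NPC list lay in both anchors of 24 pixels (5.93%) and in a single anchor of 119 (29.4%), where all classified pixels had 1.72% and 18.8%. Among the 221 distinct anchor bins, 25.3% held a 2i peak and 10.9% an NPC peak, and among the other 1538 bins of the 6 loci these shares were 20.2% and 10.9%. Bins with a peak of both ES lists only made up 14.5% of anchor bins and 7.67% of the others. These are descriptions, with no test.

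CTCF content differed by locus. At Oct4, 42 of 105 pixels had a 2i peak in both anchors and 11 had none. At Sox2, Olig1-Olig2 and Nestin no pixel had a 2i peak in both anchors, and neither anchor had one in 82 of 98, 40 of 52 and 12 of 17 pixels. At Klf4, 1 of 121 pixels had a peak in both and 82 in neither, and at Nanog 2 of 12 had a peak in both. So 42 of the 45 pixels with a peak in both anchors were at Oct4.

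**Figure D4:**
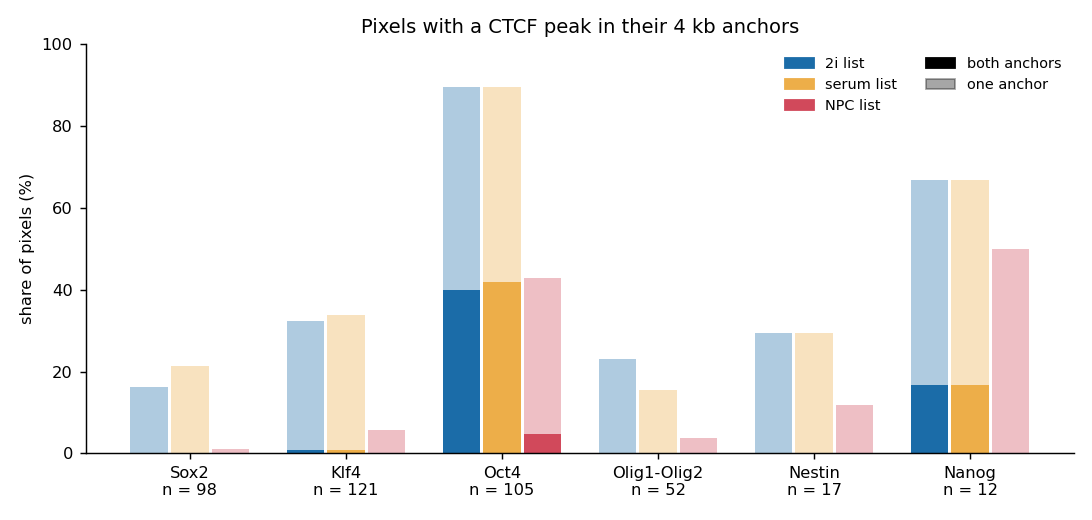
Share of the pixels of each locus (vertical axis, percent) with a CTCF peak of the 2i, serum or NPC list in both 4 kb anchors (dark) or in a single anchor (light), with the number of pixels under each locus. Oct4 stands highest, with 42 of 105 pixels in the dark part of the 2i bar, and Sox2 has no dark part in any list.

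The common anchors show the same contrast. The Oct4 stretch chr17:35618392-35650391 held 8 peaks in the 2i list, 8 in the serum list and 2 in the NPC list. Its strongest 2i peak, chr17:35620977-35621586, had a fold enrichment of 41.8 as the authors give it and was also in the serum and NPC lists. The next by fold, chr17:35646298-35646588 with 22.3 and chr17:35645205-35645526 with 19.1, overlapped a serum peak and no NPC peak. The leading Oct4 pixel had a 2i peak of fold 10.97 in its first anchor, absent from the NPC list, and 1 of fold 16.8 in its second anchor that was in all 3 lists. The Klf4 stretch chr4:55467979-55491978, an anchor of 84 pixels, held 2 peaks in each ES list, of fold 10.6 and 14.1 in 2i, and 0 in the NPC list. The leading Klf4 pixel and the pixels with the 3 highest lower 2i scores had no peak of any list in either anchor. The most used Sox2 stretch, chr3:34636880-34668879, held 1 peak in the 2i list (fold 15.5), 3 in the serum list and 0 in the NPC list. The Sox2 stretches at chr3:34912880-34936879 and chr3:35020880-35032879 and the Olig1-Olig2 stretch chr16:91134613-91146612 held no peak of any list. By whole clusters, with their wider anchors, 10 of 53 had a 2i peak on both sides, 27 on 1 side and 16 on neither.

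The siRNA libraries were not used to choose the pixels, and they cover the Sox2 and Klf4 loci in NPCs, where 219 of the 405 pixels lie. Of these pixels, 72.4% scored below 26 in both control libraries, close to the 75.1% of all scored pixels. The median score was 9.22 in control replicate 1 and 11.7 in replicate 2, against 10.3 and 10.2 over all scored pixels of both loci. A score of 26 or more in both control libraries was found for 12 of 214 pixels (5.61%), where 6.5% of all scored pixels and 18.1% of the 1288 classified pixels scored there reached it. NPC-specific pixels of these loci, chosen by the same rule in the untreated libraries, reached it in 38.6% of 220.

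With YY1 siRNA the libraries differed from each other. In replicate 1 the median was 8.26 and 38 of 210 pixels (18.1%) scored 26 or more, and in replicate 2 the median was 18.8 and 79 of 215 (36.7%) did. Over all scored pixels these shares were 15.9% and 15.5%, and in the control libraries 14.0% and 20.3% of the pixels scored 26 or more. At Sox2 the median was 26.5 in YY1 replicate 2 and 12.1 to 15.8 in the other 3 libraries, and at Klf4 it was 9.62 against 5.71 to 7.18. YY1 replicate 2, with 12993781 counts, was also the deepest of the 4 libraries, and the part of depth in this difference was not tested. In both YY1 libraries 25 of 208 pixels (12.02%), 18 of them at Sox2, scored 26 or more, where 5.42% of all scored pixels did. Among the classified pixels of these loci the share was 12.3% of 1282, close to that of the pixels described here.

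**Figure D5:**
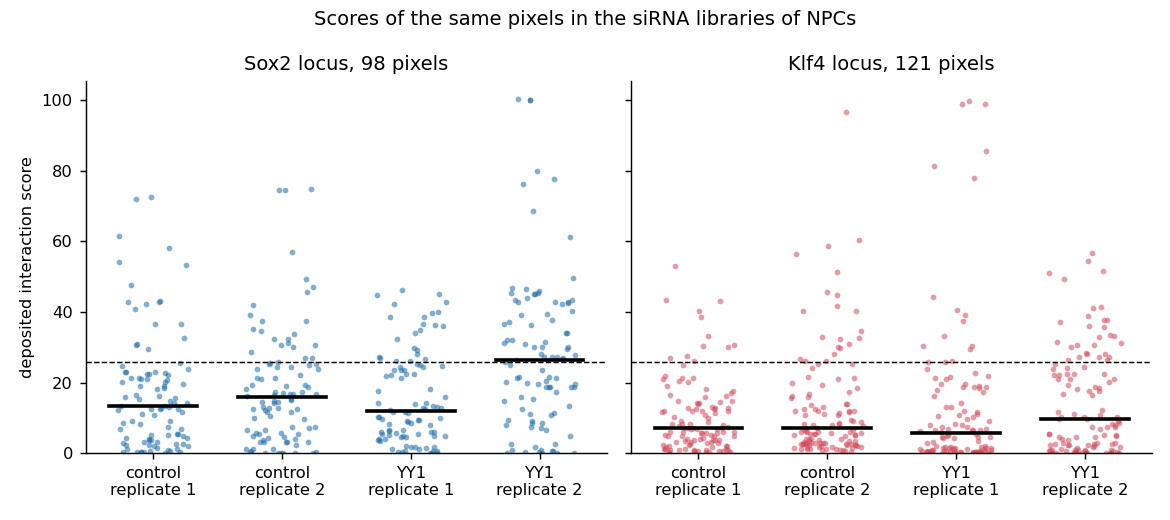
Deposited interaction score (vertical axis, no unit) of the pixels at the Sox2 (left) and Klf4 (right) loci in the 4 siRNA libraries of NPCs. Black bars are medians and the dashed line is a score of 26. The Sox2 median is 26.5 in YY1 replicate 2 and between 12.1 and 15.8 in the other 3 libraries.

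By cluster, scores in the siRNA libraries varied between libraries of the same treatment. Of the 25 Sox2 and Klf4 clusters, 1 had a mean score of 26 or more in all 4 libraries and 10 were below 26 in all 4. The former joined chr3:34584880-34604879 with chr3:34660880-34668879, with means of 28.3 and 32.4 in control and 32.3 and 31.9 in YY1 siRNA. In the untreated libraries, which chose the pixels, the means were 3.37 and 3.16 in NPCs and 62.7 and 55.7 in 2i cells. The siRNA libraries had another protocol and NPC plating density, and the part of these in the difference was not tested. A Klf4 cluster joining chr4:55403979-55415978 with chr4:55671979-55679978 had 0.850 and 48.7 in control and 90.3 and 20.1 in YY1 siRNA. A window pair holding 4 of its 6 pixels, chr4:55395979-55411978 with chr4:55667979-55683978, had 1 and 0 counts in control and 0 and 6 in YY1 siRNA, so its scores rest on hardly any reads there. Both YY1 means exceeded both control means in 4 of the 25 clusters and lay below both in 1. With 2 libraries against 2, random labels separate the groups, in either direction, at a share of 0.333. None of these counts of clusters was made for other pixels of the loci. So nothing particular to these clusters, and no effect of YY1 siRNA, is read from them.

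The counts gave no call. Of the 55 window pairs at these loci that hold the pixels, 50 passed the filter, and 0 passed an edgeR adjusted p below 0.05, as was so for 0% of all 3741 pairs tested. At an unadjusted p below 0.05 edgeR gave 1 of the 50, where 9.7% of all pairs passed, and DESeq2 called 0 of the 50 and 56 of all pairs after adjustment, but gave no adjusted p for 27 of the 50 and 1016 of all pairs, which could not be called. The median log2 fold change of YY1 against control siRNA was 0.03 over the 50 pairs and 0.01 over all pairs. By locus it was 0.24 over the 26 Sox2 pairs, of which 10 were below 0, and -0.14 over the 24 Klf4 pairs, of which 14 were. The median SE of a pair was 0.61, which limits the changes of a pair that were detectable at this depth and spread.

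The pair with the smallest p joined chr3:34636880-34652879 with chr3:34780880-34796879 at Sox2 and held 8 pixels. It had a CPM, scaled to the counts of these 2 loci alone, of 262 and 328 in control siRNA and of 408 and 480 in YY1 siRNA. Its groups did not overlap, with a difference of 0.60 on the log2 scale (SE 0.23, edgeR adjusted p = 0.43). The next, chr4:54979979-54995978 with chr4:55491979-55507978 at Klf4, had a CPM of 56.0 and 49.0 in control and 13.5 and 35.3 in YY1 siRNA. Its groups did not overlap either, and the difference was -1.04 on the log2 scale (SE 0.61, edgeR adjusted p = 0.64), -0.50 without YY1 replicate 1 and -1.98 without YY1 replicate 2. Neither passed the adjusted threshold. Both were picked for their small p, and how many of all pairs had groups that did not overlap was not counted.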

How the data were processed

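The authors deposited raw 5C counts per primer pair, per the labels, with Bowtie and mm9 in the submitters' processing notes and no version given. The authors' deposited tables give per 4 kb bin pair an interaction score, a p-value and log-scale observed and expected values, for which no source used here gives the log base. The score follows minus 10 times log2 of that p within 0.0618. A further 15 per-sample columns were not used. The submitters' processing notes name MACS2 and mm9 for the CTCF peaks, with a single library behind each list. Deposited peak values are fold enrichment (a ratio) and −log10 q, and are the authors'. Inputs were not analysed here. The classified table's date-like locus name was read as Oct4.

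Forward-reverse counts within each locus (92436 pairs, and 32660 in the siRNA libraries) were summed over pairs of 16 kb windows by fragment midpoint. They were tested with edgeR 4.0.16 in R 4.3.3 (quasi-likelihood, filterByExpr, TMM), with an offset per library and locus, the loess fit (span 0.5) on distance of the log of counts to which 0.5 was added. The untreated and the siRNA libraries had a fit each, with group as the only term and Benjamini-Hochberg adjustment over all pairs. Common biological coefficients of variation were 0.200 and 0.376. A peak counted with 1 bp in a 4 kb bin. Pandas 2.3.3 and numpy 2.4.6 under Python 3.11.15 were used, and DESeq2 1.42.0 was an alternative. Other alternatives were scaling, count filter, window size and grid, score threshold, adjacency, anchor width, peak threshold, replicate block and leaving out libraries.

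The members, lists and tests were chosen with earlier results of these data known. Named pixels were the top pixel of the largest cluster per locus, the 3 highest and lowest by lower 2i score, and those nearest the threshold. Named siRNA pairs were those past the threshold or, with none, the 2 with the smallest p. Other clusters and pairs named were chosen after their values were seen.

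Tested on simulated data, the siRNA comparison over 3713 pairs recovered 7 of 100 pairs with a log2 change of 1 and 49 of 97 with 2, with 5.09% false calls. For NPCs against 2i over 15040 pairs it was 42 and 95 of 100 each, with 4.86% false calls. The simulated pairs shared a common dispersion, and apart from the changed pairs their means differed between libraries by depth alone. Pairs with low mean counts were left out, so the rates in the real data may differ.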

Additional observations from a re-analysis of the deposited data

How the results depend on the processing

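The number of pixels was 394 with a threshold of 24 and 412 with 28, and 405 to 417 without any 1 library. With pixels joined by a side only there were 60 clusters. The share with a 2i peak in both anchors was 35.6% with anchors of 16 kb, below the 42.8% of all classified pixels, and 8.395% with peaks of −log10 q of at least 20, above their 5.83%, so the order of the 405 pixels and all pixels turned with anchor width. The cause was not tested. Window pairs called lower in serum numbered 35 to 68 without any 1 library (35 without 2i replicate 1, 36 without serum replicate 1 and 35 without serum replicate 2), where a lone library is taken to have the spread of the other groups. For NPCs they numbered 43 to 64. These serum and NPC calls follow from the choice of the pixels and are no test of them. The median log2 fold change for NPCs was -1.48 with 8 kb windows and -1.32 to -1.05 without any 1 library. For serum it was -1.10 to -0.83 without any 1 library. For YY1 siRNA 0 of the pairs with these pixels were called in every edgeR setting run, although over all pairs 42 were called lower and 24 higher without YY1 replicate 2. The uncalled median of 0.03 was -0.10 to 0.06 without any 1 library, -0.02 with TMM scaling alone and -0.05 with shifted windows, so its sign was not kept. Other counts of calls over all loci together stayed within 1.5 times. The values of both named siRNA pairs kept their direction and side of the threshold in every setting run on the same window grid. With 8 kb or shifted windows these pairs were not followed. Pairs resting on few primer pairs or counts limit precision.

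Same-numbered libraries shared little deviation, with correlations of 0.036, 0.086 and 0.023 in the untreated groups and 0.047 in the siRNA groups. These values do not show whether the libraries were paired. With the replicate block, 67 of the pairs with these pixels were called lower in serum, 70 in NPCs and 0 for YY1 siRNA. Over all pairs tested, the block gave 2130 lower and 1915 higher in serum, against 1803 and 1488 without it.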
